A study of Mus musculus with 6 samples.

Results

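The cornified envelope is the cross-linked protein shell that replaces the plasma membrane of the outermost cells of the epidermis. The genes described here are its epidermal components and the enzymes that assemble it, without the keratins. A list of 33 symbols was matched to probe sets assigned a single gene symbol, and 31 of them matched, of 19938 symbols measured. They comprised 9 Sprr genes, 11 Lce genes, 3 fused-type genes (Flg2, Hrnr and Rptn), loricrin (Lor) and involucrin (Ivl), 4 genes grouped as enzymes and Crct1 (Tgm1, Tgm3, Casp14 and Crct1), and S100a8 and S100a9. Each of the 31 had 1 probe set. Flg, which encodes filaggrin, and Lce1m had no such probe set and were not analysed here.

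RNA came from whole corneas collected 3 days after birth (P3) and was read on expression arrays. There were 3 arrays of wild-type littermates (WT) and 3 of K14-DN-Clim transgenic mice (DN-Clim), which carry a dominant negative Clim transgene under the keratin 14 promoter. Clim proteins bind LIM-domain transcription regulators, and the keratin 14 promoter is active in the basal cells of stratified epithelia. The whole cornea also holds stroma and endothelium, where that promoter is not known to be active, so each value is an average over all corneal cells. No strain, sex or transgenic line was stated. The labels leave unstated how many pups made up a replicate, so the p-values measure only the spread between these samples.

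Small proline-rich (Sprr) and late cornified envelope (Lce) proteins, loricrin and involucrin are joined into the envelope by transglutaminases as keratinocytes die. Many of these genes lie side by side in the epidermal differentiation complex and are switched on late in epidermal differentiation. The corneal surface is a stratified epithelium that normally does not cornify, and in disease it can take on epidermal features. In the RefSeq annotation of GRCm38.p6, 30 of the 33 listed genes lay on chromosome 3 and the other 3 (Tgm1, Tgm3 and Casp14) lay elsewhere.

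Of the 31 genes, 0 passed the adjusted threshold between DN-Clim and WT, against 0.0128% of all tested probe sets (3 of 23410). With a limma unadjusted p under 0.05 there were 3 genes, Sprr2e, Sprr2b and Lce3c, all lower in DN-Clim. In these same 3 genes, and in no other of the 31, every DN-Clim array lay below every WT array. Among all tested probe sets, 5.94% had an unadjusted p under 0.05 in either direction and 4.49% with the lower value in DN-Clim. The 3 genes without overlap made up 9.68% of the 31, beside 10.1% of all tested probe sets, with 6.95% lower in DN-Clim and 3.2% higher. The counts for the envelope genes were thus near those of the whole table.

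The promoters of the Sprr2 genes other than Sprr2g are shown because these close relatives gave unlike values. Sprr2g had no window in the promoter set used, so the comparison leaves it out. Those of Lce3b and Lce3c are shown because these neighbours had the highest and the second lowest difference of the 31. Each run is the 250 bases before the annotated start, from RefSeq on GRCm38.p6, plus strand. Capitals mark matches to 3 motifs, searched on both strands. The AP-1 motif was searched as TGANTCA. The octamer was ATGCAAAT, which reads ATTTGCAT on the printed strand. The core of the TATA box was searched as TATAAA. None of the matches overlap in these windows.
Sprr2b, chr3:92316455-92316704: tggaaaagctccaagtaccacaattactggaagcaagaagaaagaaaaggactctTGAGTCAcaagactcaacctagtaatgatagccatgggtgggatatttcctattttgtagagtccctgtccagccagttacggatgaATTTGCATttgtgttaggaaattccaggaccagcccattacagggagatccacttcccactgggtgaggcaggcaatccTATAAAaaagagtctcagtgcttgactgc
Sprr2d, chr3:92338890-92339139: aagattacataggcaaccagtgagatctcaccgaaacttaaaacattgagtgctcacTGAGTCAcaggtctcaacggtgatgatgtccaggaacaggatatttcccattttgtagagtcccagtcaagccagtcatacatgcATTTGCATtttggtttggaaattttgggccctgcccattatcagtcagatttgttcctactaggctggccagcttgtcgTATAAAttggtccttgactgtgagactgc
Sprr2e, chr3:92351893-92352142: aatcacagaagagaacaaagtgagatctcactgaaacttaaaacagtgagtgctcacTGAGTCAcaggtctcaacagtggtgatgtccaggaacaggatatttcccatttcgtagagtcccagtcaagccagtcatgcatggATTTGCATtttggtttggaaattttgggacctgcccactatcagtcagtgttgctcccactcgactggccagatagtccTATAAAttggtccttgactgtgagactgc
Sprr2f, chr3:92364937-92365186: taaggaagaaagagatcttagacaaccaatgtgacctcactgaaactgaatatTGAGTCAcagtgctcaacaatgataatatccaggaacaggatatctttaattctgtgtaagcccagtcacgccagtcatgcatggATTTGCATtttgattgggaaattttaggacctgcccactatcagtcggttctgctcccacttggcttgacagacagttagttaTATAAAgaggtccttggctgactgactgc
Sprr2h, chr3:92385435-92385684: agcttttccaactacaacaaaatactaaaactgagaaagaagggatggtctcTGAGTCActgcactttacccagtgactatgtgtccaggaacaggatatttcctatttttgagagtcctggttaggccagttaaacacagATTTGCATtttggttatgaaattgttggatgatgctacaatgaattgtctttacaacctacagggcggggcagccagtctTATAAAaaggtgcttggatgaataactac
Lce3b, chr3:92932729-92932978: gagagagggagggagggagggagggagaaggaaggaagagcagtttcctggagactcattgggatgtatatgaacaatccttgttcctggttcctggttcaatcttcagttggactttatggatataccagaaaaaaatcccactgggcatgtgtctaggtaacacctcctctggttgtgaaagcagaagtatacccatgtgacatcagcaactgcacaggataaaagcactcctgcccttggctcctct
Lce3c, chr3:92944236-92944485: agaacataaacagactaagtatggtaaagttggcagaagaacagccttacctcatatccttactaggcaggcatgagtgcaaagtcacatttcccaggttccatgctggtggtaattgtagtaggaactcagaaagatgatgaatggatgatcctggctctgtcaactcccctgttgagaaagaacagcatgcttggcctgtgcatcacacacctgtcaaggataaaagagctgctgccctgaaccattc
Each of the 5 Sprr2 windows held 1 match to each motif. The TATA match began 29 bases before the start in all 5, and the octamer match between 108 and 112 bases before it. The AP-1 match began between 193 and 198 bases before the start. Neither Lce3 window held an exact match to any of the 3 motifs. Both held the letters ggataaaag near the end of the printed run, which differ from TATAAA and were not counted.

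The 3 motifs did not separate the Sprr2 genes with low values from the others, since Sprr2f and Sprr2h carried the same set. Over these windows Sprr2d and Sprr2e were 89.3% identical (225 of 252 aligned columns), and Sprr2e and Sprr2f 73.9%. The other pairs of Sprr2 windows ranged from 60.1% to 71.1%, and Lce3b and Lce3c were 58.4% identical. Promoters were given for 30 of the 33 listed genes. AP-1 sites bind Jun and Fos family factors, and a match was found in 12 of the 30 (40.0%) and in 6.75% of 32851 windows of the same length. It was present in 7 of 8 Sprr, 3 of 4 fused-type and 2 of 2 loricrin and involucrin windows, and in 0 of 11 Lce windows. The octamer, a site of POU-domain factors, was found in the 5 Sprr2 windows printed here (16.7% of the 30) and in 1.6% of all windows. The TATA match was found in 17 of the 30 (56.7%) and in 12.4% of all windows. A match is a description of the letters and not a measured binding site.

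The arrays did not fall into their groups alone. DN-Clim replicate 3 correlated across all tested probe sets at 0.949 to 0.962 with the WT arrays, and at 0.928 and 0.900 with DN-Clim replicates 1 and 2. The 9 measured lens markers averaged 8.36 to 8.89 on the WT arrays and 11.76, 12.09 and 8.13 on DN-Clim replicates 1, 2 and 3. Lim2, a lens fibre membrane protein, was the only one of the 9 without overlap (11.1%), and it was higher. Among all tested probe sets 3.2% were higher without overlap. Corneal epithelial markers (10 of 10 measured) had mean levels of 10.98 to 11.05 in WT and 10.51 to 11.12 in DN-Clim. The dimmest of them, Slurp1, read 7.22 to 7.91 in WT and 7.45 to 8.13 in DN-Clim. Those readings were in the range of the olfactory receptor probe sets described below. No marker on any of these lists was at 0. The part of the lens signal in the results below was not tested. The main results are therefore given array by array, and with and without DN-Clim replicate 3. Levels are log2(intensity + 16), and differences are DN-Clim minus WT on that scale, which understates changes of dim genes.

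Most of the 31 genes gave mean readings within the range of those of genes not known to act in the cornea. Olfactory receptors are made in sensory neurons of the nose, and their 1023 probe sets, chosen as a reference after the values were seen, had a median level of 7.03 and a 95th percentile of 8.46. The mean level was not above that 95th percentile in 23 of the 31, among them Sprr2e, Sprr2b, Lor, the 3 fused-type genes and both S100 genes. Rptn (6.01), Flg2 (6.59) and Lce1f (6.81) lay below the olfactory receptor median. The 8 above the 95th percentile were Sprr1b, Sprr2d, Sprr2h, Lce1b, Lce3c, Ivl, Tgm1 and Tgm3. Probe sets differ in how they bind, so this sets no order of transcript levels. By this measure the mean readings of the 23 cannot be told apart from background, which does not show that the genes were silent. Of the 31 genes, 28 had a mean level above the olfactory receptor median. Crct1, with a mean of 8.459, lay just under the percentile (8.463). Some single readings of the 23 lay above it, among them Lce3a at 9.09 and Crct1 at 8.78 on DN-Clim replicate 3.

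**Figure D1:**
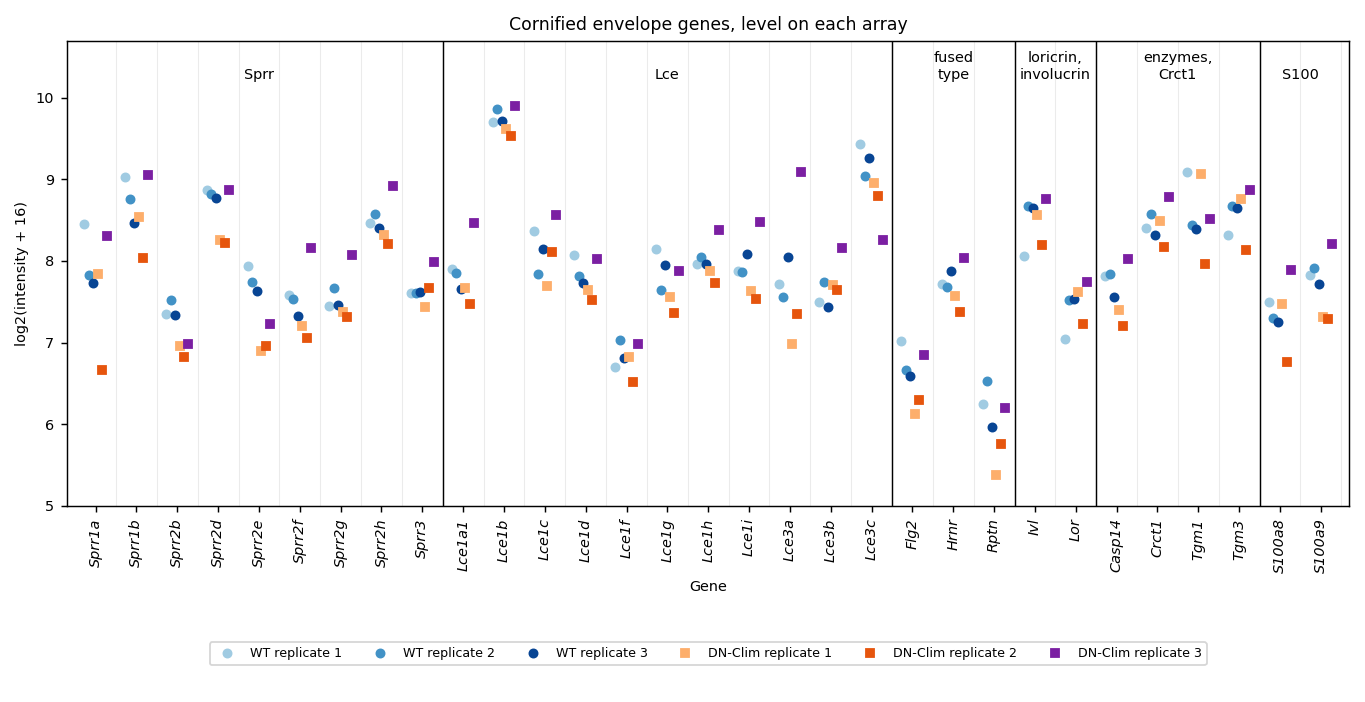
Level of each of the 31 cornified envelope genes on each of the 6 arrays, as log2(intensity + 16), by subfamily. Circles are WT and squares DN-Clim arrays. In Sprr2b, Sprr2e and Lce3c the 3 squares lie below the 3 circles, and in 20 genes DN-Clim replicate 3 is the highest point.

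The Sprr genes encode small, proline-rich proteins that bridge other envelope proteins. Sprr2e read 7.94, 7.74 and 7.63 on WT replicates 1, 2 and 3, and 6.90, 6.95 and 7.23 on DN-Clim replicates 1, 2 and 3. The groups did not overlap, and the highest DN-Clim array was replicate 3. The mean went from 7.77 ± 0.16 (SD, n = 3) to 7.03 ± 0.18 (SD, n = 3). This was a difference of -0.74 (SE 0.188, 95% interval -1.17 to -0.32, limma adjusted p = 0.612). It was the lowest difference of the 31, at a signal in the range of the olfactory receptor probe sets, so it is given as a difference of readings with no fold. Without DN-Clim replicate 3 it was -0.84 (SE 0.162) and passed the threshold (limma adjusted p = 0.0454), the only one of the 31 to do so, beside 2.06% of all probe sets.

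Sprr2b read 7.35, 7.53 and 7.34 on the WT arrays and 6.96, 6.83 and 6.98 on the DN-Clim arrays. All 3 DN-Clim arrays, replicate 3 included, lay below the WT arrays by a similar amount. The difference was -0.48 (SE 0.173, 95% interval -0.87 to -0.09, limma adjusted p = 0.771). It was -0.51 without DN-Clim replicate 3, where it did not pass (limma adjusted p = 0.139).

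Sprr2d, whose promoter window was the closest to that of Sprr2e, read 8.87, 8.82 and 8.78 on the WT arrays and 8.25, 8.22 and 8.87 on the DN-Clim arrays. DN-Clim replicates 1 and 2 lay below the WT arrays, and replicate 3 lay among them. Its difference was -0.37 (SE 0.215, limma adjusted p = 0.95). Sprr2f (7.59, 7.53 and 7.32 in WT, 7.20, 7.05 and 8.15 in DN-Clim), Sprr2g (7.45, 7.66 and 7.46, then 7.38, 7.32 and 8.07) and Sprr2h (8.46, 8.57 and 8.40, then 8.32, 8.20 and 8.92) shared another pattern. In each, DN-Clim replicates 1 and 2 were lowest and replicate 3 was highest of the 6 arrays, and the differences were -0.01, 0.06 and 0.00. The Sprr2 genes are near-identical copies in places and their probe sets may share signal, so values assigned to single Sprr2 genes are uncertain.

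Sprr1a and Sprr1b, which are induced in stressed and regenerating epithelia, also varied among the DN-Clim arrays. Sprr1a read 8.45, 7.83 and 7.72 on the WT arrays and 7.84, 6.66 and 8.31 on the DN-Clim arrays, a difference of -0.40 (SE 0.392). Sprr1b read 9.02, 8.77 and 8.46 on the WT arrays and 8.53, 8.03 and 9.05 on the DN-Clim arrays, a difference of -0.21 (SE 0.275). In both, replicate 2 was the lowest array and the groups overlapped. Sprr3, a component of the envelope of internal stratified epithelia, read 7.60, 7.61 and 7.62 on the WT arrays and 7.44, 7.67 and 7.99 on the DN-Clim arrays, a difference of 0.09 (SE 0.195). The median difference of the 9 Sprr genes was -0.21, and their medians against the WT mean were -0.22, -0.58 and 0.30 on DN-Clim replicates 1, 2 and 3.

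The Lce genes encode small cysteine-rich and glycine-rich proteins added late to the envelope. Lce3c read 9.44, 9.04 and 9.26 on the WT arrays and 8.95, 8.80 and 8.26 on the DN-Clim arrays. The groups did not overlap, and here replicate 3 was the lowest array, unlike in Sprr2e and Sprr2b. The mean went from 9.25 ± 0.20 (SD, n = 3) to 8.67 ± 0.36 (SD, n = 3), a difference of -0.58 (SE 0.228, 95% interval -1.09 to -0.06, limma adjusted p = 0.817). This was 1.49-fold lower, and without DN-Clim replicate 3 the difference was -0.37. Human LCE3 genes are associated with skin inflammation and repair.

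Lce3b, the neighbour of Lce3c, gave the highest difference of the 31 at 0.28 (SE 0.206, limma adjusted p = 0.999). It read 7.50, 7.74 and 7.44 on the WT arrays and 7.70, 7.65 and 8.16 on the DN-Clim arrays, with overlap between the groups. Lce3a, picked after its values were seen, had the widest spread. It read 7.72, 7.56 and 8.05 on the WT arrays and 6.98, 7.34 and 9.09 on the DN-Clim arrays, so replicate 3 was 1.31 above the WT mean while replicates 1 and 2 were below it. Its mean difference of 0.02 had a 95% interval from -1.03 to 1.08.

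The 8 Lce1 genes measured had differences from -0.31 in Lce1g to 0.06 in Lce1a1. Lce1g read 8.15, 7.64 and 7.95 on the WT arrays and 7.56, 7.37 and 7.88 on the DN-Clim arrays (SE 0.215, limma adjusted p = 0.999). Its groups overlapped through DN-Clim replicate 3. The median difference of the 11 Lce genes was -0.06 (0.05 under quantile normalization), with medians of -0.24, -0.34 and 0.38 on DN-Clim replicates 1, 2 and 3. Lce paralogs are also close in sequence, and the caution given for Sprr2 applies to them.

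The fused-type genes encode long repeat proteins related to filaggrin, which bind keratin filaments or join the envelope. Rptn, repetin, read 6.25, 6.53 and 5.97 on the WT arrays and 5.37, 5.76 and 6.19 on the DN-Clim arrays, a difference of -0.48 (SE 0.251, limma adjusted p = 0.916). Flg2 read 7.02, 6.66 and 6.58 on the WT arrays and 6.13, 6.29 and 6.85 on the DN-Clim arrays, a difference of -0.33 (SE 0.236). In both, replicates 1 and 2 lay below the WT arrays and replicate 3 lay among them. Hrnr, hornerin, read 7.72, 7.68 and 7.88 on the WT arrays and 7.58, 7.38 and 8.04 on the DN-Clim arrays, a difference of -0.10 (SE 0.213). The median of the 3 differences was -0.33.

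Loricrin is the major protein of the mature epidermal envelope and involucrin is an early scaffold protein. Lor read 7.04, 7.52 and 7.53 on the WT arrays and 7.62, 7.23 and 7.74 on the DN-Clim arrays, a difference of 0.16 (SE 0.221, 95% interval -0.33 to 0.66). Ivl read 8.07, 8.68 and 8.65 on the WT arrays and 8.56, 8.20 and 8.76 on the DN-Clim arrays, a difference of 0.04 (SE 0.237, 95% interval -0.49 to 0.58). For both genes WT replicate 1 was the lowest array, replicate 3 of DN-Clim was the highest, and the groups overlapped.

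Transglutaminases 1 and 3, encoded by Tgm1 and Tgm3, cross-link the envelope proteins. Tgm1 read 9.09, 8.44 and 8.39 on the WT arrays and 9.06, 7.97 and 8.52 on the DN-Clim arrays, a difference of -0.13 (SE 0.304). Tgm3 read 8.32, 8.67 and 8.65 on the WT arrays and 8.76, 8.14 and 8.87 on the DN-Clim arrays, a difference of 0.04 (SE 0.235). Casp14, a caspase that acts in filaggrin breakdown, read 7.81, 7.85 and 7.56 on the WT arrays and 7.40, 7.20 and 8.02 on the DN-Clim arrays, a difference of -0.20 (SE 0.239). In all 3 enzymes DN-Clim replicate 2 was the lowest array and the groups overlapped. Crct1, a gene of the same complex, gave a difference of 0.05 (SE 0.207).

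S100a8 and S100a9 encode the subunits of calprotectin, made by neutrophils and by stressed keratinocytes. S100a8 read 7.49, 7.30 and 7.26 on the WT arrays and 7.47, 6.76 and 7.89 on the DN-Clim arrays, a difference of 0.03 (SE 0.277). S100a9 read 7.83, 7.91 and 7.72 on the WT arrays and 7.31, 7.29 and 8.21 on the DN-Clim arrays, a difference of -0.22 (SE 0.262). Both were highest on DN-Clim replicate 3, and the groups overlapped. The 13 measured neutrophil markers averaged 7.25 to 7.33 in WT and 6.99 to 7.72 in DN-Clim. All 13 lay above the WT mean on DN-Clim replicate 3, with a median of 0.35. On that array the olfactory receptor probe sets had a median of 0.30 above the WT mean. Ngp, a neutrophil granule protein, was the only one of the 13 without overlap (7.69%), higher by 0.45. Among all tested probe sets 3.2% were higher without overlap. The part of neutrophil markers in the S100a8 and S100a9 values was not tested.

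**Figure D2:**
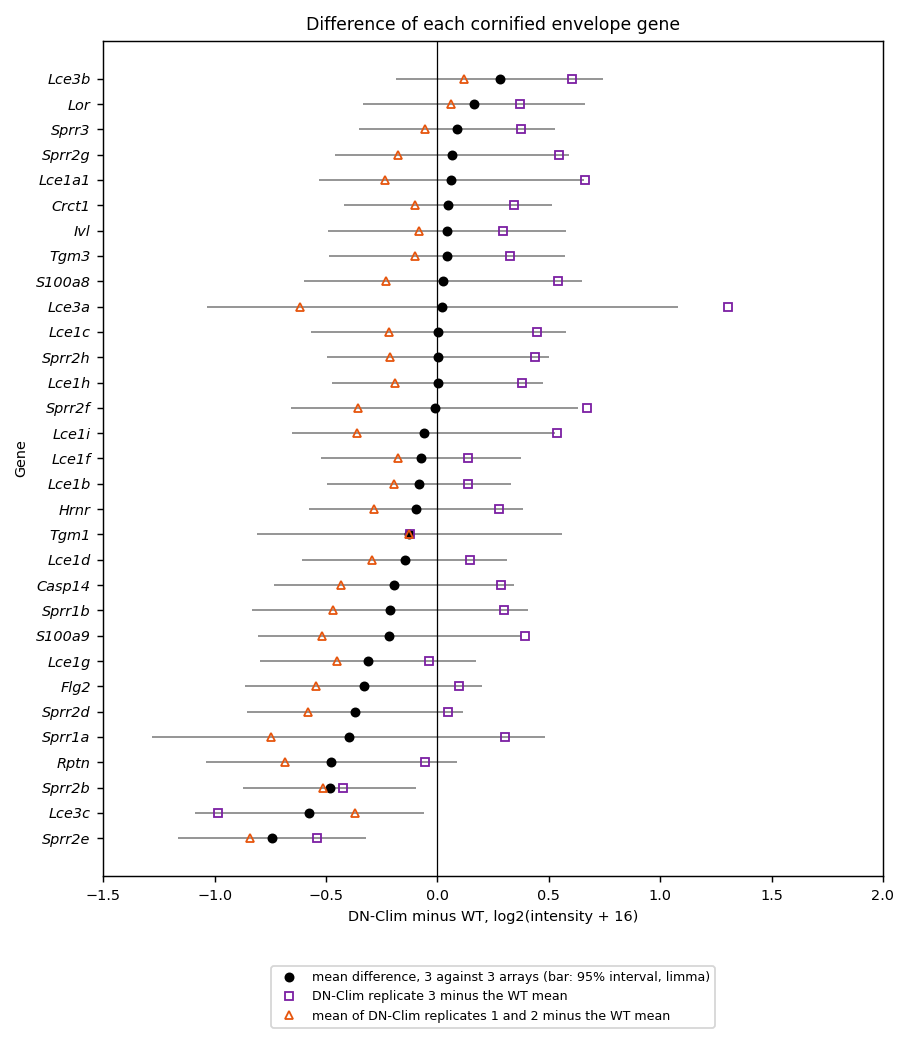
Difference of each of the 31 genes, DN-Clim minus WT in log2(intensity + 16), ordered by size. Black points are means of 3 against 3 arrays with limma's 95% interval, squares are DN-Clim replicate 3 and triangles the mean of DN-Clim replicates 1 and 2, each minus the WT mean. The interval includes 0 in 28 genes, and most squares lie to the right of 0 while most triangles lie to the left.

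Across the 31 genes the differences ran from -0.74 to 0.28, with 18 below and 13 above 0. The median was -0.07, beside -0.04 over all tested probe sets. The 95% interval of the difference included 0 in 28 genes. It lay wholly within 1 unit of 0 on this log2 scale in 26 of the 31, and Sprr1a, Sprr2e, Lce3a, Lce3c and Rptn were the exceptions. Because the scale understates changes of dim genes, this sets no bound on their fold changes. With fewer envelope-forming cells or less RNA per cell, the signal from a whole cornea would be equally lower, and these cannot be told apart.

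The DN-Clim arrays differed among themselves more than these means show. On DN-Clim replicate 1, 24 of the 31 genes lay below the WT mean, with a median of -0.18. On replicate 2, 29 of 31 lay below it, with a median of -0.42. On replicate 3, 25 of 31 lay above it, with a median of 0.30. Replicate 3 was the highest of the 6 arrays in 20 genes (64.5%, beside 34.6% of all tested probe sets), and replicate 2 was the lowest in 21 (67.7%, beside 39.6%). Lce3c, Sprr2b, Sprr2e, Tgm1, Lce1g and Rptn were the 6 genes below the WT mean on replicate 3.

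Without DN-Clim replicate 3, 29 of the 31 genes lay below 0 and the median was -0.28, beside -0.12 for all tested probe sets. The remaining DN-Clim arrays then lay below all WT arrays in 18 genes (58.1%), beside 27.8% of all tested probe sets and 42.3% of olfactory receptor probe sets. DN-Clim replicate 3 alone gave a median of 0.30 against WT, with 0 genes past the threshold. Under quantile normalization the median over all 6 arrays was 0.04, with 15 genes below 0. Leaving out DN-Clim replicate 2 in place of replicate 3 turned the median to 0.07 for all 31 and for Sprr, 0.06 for Lce and 0.14 for S100. Leaving out replicate 1 gave -0.05 for all 31 and 0.06 for Lce. The direction of the group as a whole therefore turned with the scaling and with which DN-Clim arrays were used.

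The same array shifts were seen in the olfactory receptors, again as a description chosen after the values were seen. Their 1023 probe sets had median deviations from the WT mean of -0.15, -0.43 and 0.30 on DN-Clim replicates 1, 2 and 3, and the 31 envelope genes had -0.18, -0.42 and 0.30. The 11705 tested probe sets of lower mean intensity had -0.11, -0.28 and 0.20. Those of higher mean intensity had -0.02, 0.05 and -0.07. Of the 31 envelope genes, 22 had a mean level below the median of the tested probe sets. After quantile normalization the shifts were -0.11, -0.19 and 0.29 for the envelope genes and -0.01, -0.19 and 0.26 for the olfactory receptors. A shift of dim probe sets thus moved with the envelope genes array by array, and its part in their values was not tested.

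**Figure D3:**
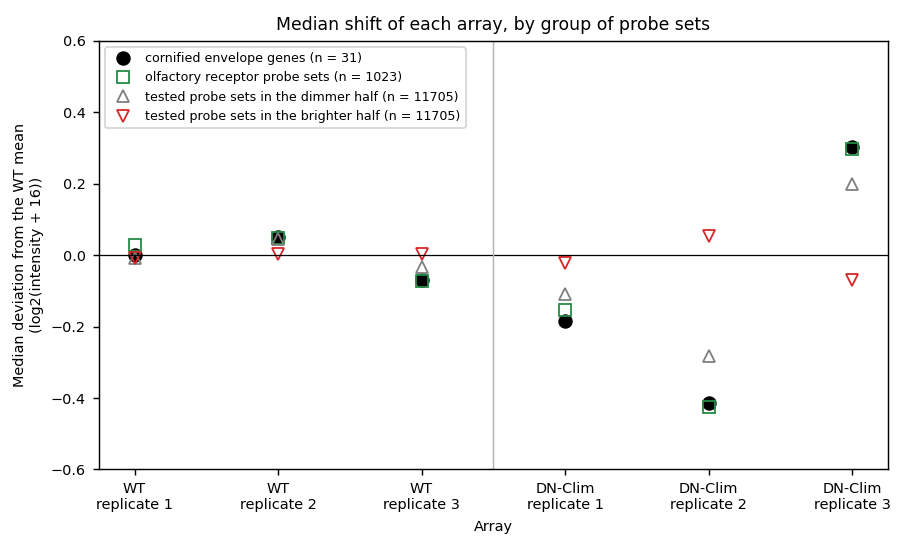
Median deviation from the WT mean on each array, in log2(intensity + 16), for the 31 cornified envelope genes, the 1023 olfactory receptor probe sets and the tested probe sets of lower and of higher mean intensity. Envelope genes and olfactory receptors lie close together on all 6 arrays, at -0.42 and -0.43 on DN-Clim replicate 2 and at 0.30 on replicate 3.

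Other genes of the epidermal differentiation complex and of the barrier were read from lists of related genes, in which 0 genes passed the adjusted threshold with all 6 arrays. Of 12 further genes, 11 of the Sprr and Lce families and Kprp (-0.35), a proline-rich keratinocyte protein, 8 lay below 0 and 0 were without overlap, with a median of -0.04 that became 0.01 under quantile normalization. Of 11 other S100 genes of the complex, all 11 lay below 0, with a median of -0.40, and 3 (27.3%) were lower without overlap, beside 6.95% of all tested probe sets. S100a14 read 11.72, 11.30 and 11.21 on the WT arrays and 10.90, 10.16 and 10.90 on the DN-Clim arrays, a difference of -0.76 (SE 0.253, limma adjusted p = 0.738). S100a10, a partner of annexin A2, read 12.25, 12.13 and 12.17 on the WT arrays and 11.29, 11.16 and 12.05 on the DN-Clim arrays, a difference of -0.68 (SE 0.248, limma adjusted p = 0.788). DN-Clim replicate 3 lay just under the WT arrays for S100a10, and without it the difference was -0.96 and passed the threshold (limma adjusted p = 0.0233).

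Of 23 genes of the envelope scaffold and of desquamation, 20 lay below 0, with a median of -0.26, and 4 (17.4%) were lower without overlap, beside the same 6.95%. Krtdap encodes a secreted protein of differentiating keratinocytes. It read 10.40, 10.87 and 10.92 on the WT arrays and 9.99, 9.19 and 9.34 on the DN-Clim arrays, a difference of -1.23 (SE 0.256, limma adjusted p = 0.473). Asprv1, a protease that cleaves filaggrin precursors, read 12.25, 12.14 and 12.13 on the WT arrays and 11.58, 11.05 and 11.77 on the DN-Clim arrays, a difference of -0.70 (SE 0.219, limma adjusted p = 0.693). Sbsn, suprabasin, was picked after its values were seen, for its narrow spread. It averaged 9.53 ± 0.019 (SD, n = 3) in WT and 8.99 ± 0.011 (SD, n = 3) in DN-Clim, a difference of -0.54 (SE 0.165, limma adjusted p = 0.693). In these 3 genes replicate 3 was lower than WT together with the other DN-Clim arrays. The fourth was Spink5, an inhibitor of skin proteases, at -0.46.

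Of 19 regulators of envelope genes, 16 lay below 0, with a median of -0.28, and 3 (15.8%) were lower without overlap, beside 6.95% of all tested probe sets. The largest difference of this list was upward, in Prdm1, which encodes the repressor Blimp1. Outside the naming rule, it was picked after its values were seen. It read 8.53, 9.26 and 10.01 on the WT arrays and 10.65, 11.28 and 9.62 on the DN-Clim arrays, a difference of 1.25 (SE 0.455, limma adjusted p = 0.788). The groups overlapped through DN-Clim replicate 3, and without it the difference was 1.70 (limma adjusted p = 0.074). Tfap2a, an AP-2 factor picked likewise, differed by 0.47. Grhl1, a grainyhead factor of stratified epithelia, read 9.17, 8.64 and 8.58 on the WT arrays and 7.95, 8.07 and 8.54 on the DN-Clim arrays, a difference of -0.61 (SE 0.238, limma adjusted p = 0.802). Ovol1, a zinc-finger repressor in epidermal differentiation, differed by -0.42 (limma adjusted p = 0.879) and Junb, an AP-1 subunit, by -0.39. Of 16 lipid barrier genes, 12 lay below 0 and 0 were without overlap, with a median of -0.07. Of 8 suprabasal epidermal keratins, 4 lay below 0, and Krt10, the keratin partner of Krt1 above the basal layer, was higher without overlap at 0.34 (limma adjusted p = 0.936). Krt10 alone made up 12.5% of that list, beside 3.2% of all tested probe sets higher without overlap.

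Some markers of the surface epithelium also had lower values in DN-Clim, and 0 of them passed the adjusted threshold with all 6 arrays. Krt14 and Krt5, the keratins of basal cells, were lower without overlap, at -0.63 (limma adjusted p = 0.721) and -0.31. They were 2 of 10 corneal markers (20%), beside 6.95% of all tested probe sets lower without overlap. Of the 10 corneal markers, 8 lay below 0, among them Krt12 at -0.03. The other 2 lay above 0, Pax6 at 0.19 and Slurp1 at 0.09, both with overlap. Aldh3a1, a corneal crystallin enzyme picked after its values were seen, read 10.04, 10.06 and 9.98 on the WT arrays and 8.33 and 8.48 on DN-Clim replicates 1 and 2. Its difference of -1.09 (limma adjusted p = 0.767) was the largest of the corneal list, and DN-Clim replicate 3 lay among the WT arrays. Without DN-Clim replicate 3, Aldh3a1 (-1.62, limma adjusted p = 0.00446) and Krt14 (-0.81, limma adjusted p = 0.0471) passed the threshold. Krt7 was the only one of 8 conjunctival markers without overlap (12.5%, beside the same 6.95%), lower at -0.63. All 8 conjunctival markers lay below 0, with mean levels of 9.77 to 10.64 in WT and 9.19 to 9.94 in DN-Clim. The upper WT value was that of replicate 1. WT replicates 2 and 3 averaged 9.77 and 9.83, below DN-Clim replicate 3 at 9.94. Krt4 of this list read 10.40, 6.68 and 8.03 on the WT arrays. All 9 macrophage markers lay below 0, 5 of them (55.6%) without overlap, beside 6.95% of all tested probe sets, Mrc1 and Lyz2 among them, with mean levels of 8.21 to 8.42 in WT and 7.73 to 8.01 in DN-Clim. The 10 measured hair follicle and eyelid markers averaged 7.60 to 7.65 in WT and 7.54 to 7.79 in DN-Clim, with members going both ways. Lhx2 differed by 1.04, Sox9 by 0.54 and Krt27 by -0.61, all with overlap and all picked after their values were seen. Lhx2 passed without DN-Clim replicate 3 (1.53, limma adjusted p = 0.0254). The part of these markers in the values of the envelope and related genes was not tested.

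**Figure D4:**
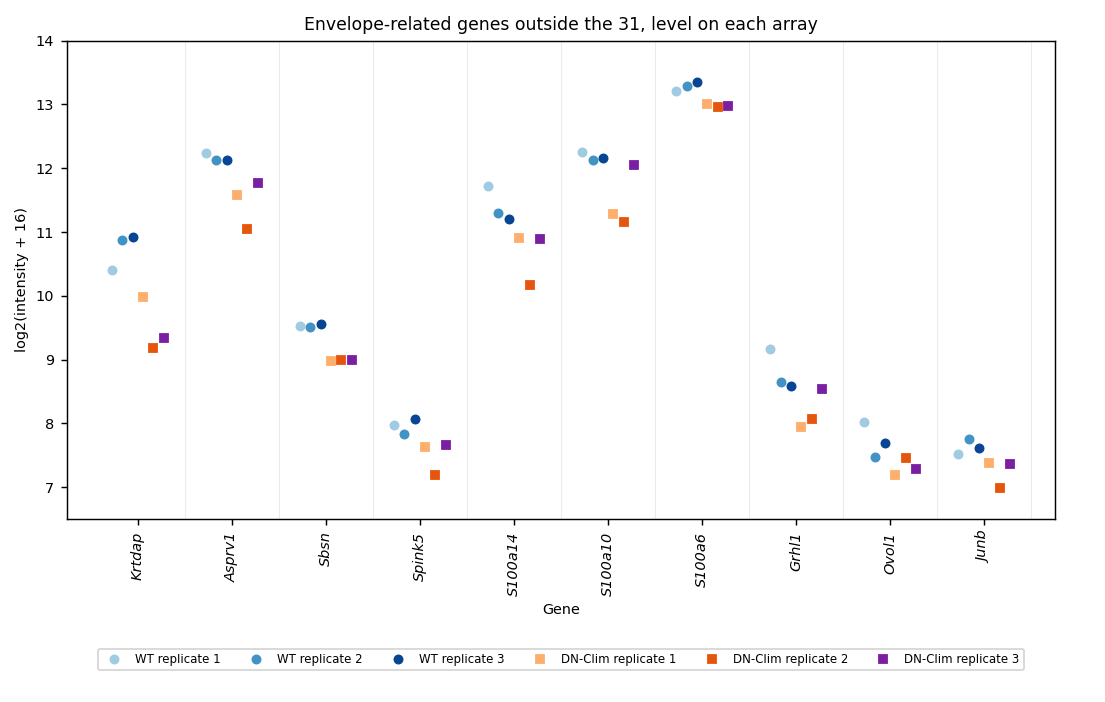
Level of 10 envelope-related genes outside the 31 on each array, as log2(intensity + 16). They are the genes of the S100, scaffold and regulator lists whose groups do not overlap, so the separation of squares (DN-Clim) from circles (WT) was the reason for their choice and 0 passed the adjusted threshold with all 6 arrays.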

How the data were processed

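Whole-cornea RNA of 3 WT and 3 DN-Clim samples was amplified and hybridised to Affymetrix Mouse Gene 1.0 ST arrays. The deposited values are intensities on a linear scale, made with Affymetrix Expression Console 1.1 and PLIER, per the submitters' processing notes. How background was corrected, arrays were normalized or an offset was added is not stated in the sources used here. Array median intensities ran from 230.8 to 280.9, and the number of arrays limits the precision. Of 35557 probe sets, 23410 had a gene in the platform table and were tested as log2(intensity + 16) with limma 3.58.1 in R 4.3.3 (lmFit, eBayes), with Benjamini-Hochberg adjustment over all of them, called under 0.05. Every adjusted p-value is from limma. The fit was tested on simulated data with independent normal noise and, for a changed probe set, the same shift on all 3 DN-Clim arrays. Those data held no differing DN-Clim array and no array-wide shift, so they do not test the fit under such conditions. Genes were taken from the 21789 probe sets with 1 symbol, the highest mean per gene.

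Named genes were those without overlap, with an unadjusted p under 0.05, or among the 3 largest differences of a subfamily, and Lor, Ivl, Tgm1, Tgm3, Casp14, S100a8 and S100a9. Remaining Sprr genes, Hrnr and Crct1 complete their subfamilies. From each related list the rule took genes past the threshold, or otherwise the 2 largest differences without overlap. Lce3a, Sbsn, Spink5, Junb, S100a6, Prdm1, Tfap2a, Kprp, Aldh3a1, Krt12, Pax6, Lhx2, Sox9 and Krt27 were added after their values were seen. Genes and lists were chosen with earlier results of these data known. Alternatives were offsets of 1 and 64, quantile normalization, median centring, a filter on dim probe sets, all probe sets, a trended robust prior, array weights, a replicate block, each array left out, and DN-Clim replicate 3 alone.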

Additional observations from a re-analysis of the deposited data

How the results depend on the processing

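The 31 genes were refitted under 16 alternatives. Of 474 comparisons of a gene's difference with its value above, 402 kept direction and side of the threshold, 5 passed it and 67 changed sign, in 24 genes and never past the threshold. All 16 genes within 0.1 of 0 were among the 24. The cause was not tested. Single arrays decided most counts: 3 probe sets passed with all arrays, and between 0 and 483 with 1 array left out (0 without WT replicate 1, 483 without DN-Clim replicate 3). The count was 1 under quantile normalization, 0 over all probe sets of the table, 5 with a trended robust prior, 2059 with array weights and 79 for DN-Clim replicate 3 alone. Correlations of same-numbered deviations from the group means were 0.0172, -0.206 and -0.436. Deviations within a group of 3 are tied to one another, so these cannot decide whether the replicate numbers pair the samples. With the replicate number as a block 9 probe sets and 0 of the 31 genes passed. With array weights 4 of the 31 passed (Sprr2b, Sprr2d, Sprr2e and Rptn, all lower). The weights were estimated gene by gene because the default estimate did not converge. They were 3.06, 0.385 and 0.199 for DN-Clim replicates 1, 2 and 3, so the weighted DN-Clim values rest mostly on replicate 1. Leaving out 1 array gave 0 to 1 of the 31 past the threshold and 3 to 18 without overlap. Genes without overlap numbered 5 after median centring and 1 with the filter on dim probe sets, which left no S100 or fused-type gene. For DN-Clim replicate 3 alone the median difference was 0.30 for all 31 and for Sprr, 0.38 for Lce, 0.47 for S100 and 0.10 for fused-type genes. Each gene had 1 probe set, so averaging probe sets changed nothing.

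Differences that changed sign against DN-Clim replicate 3 alone were Flg2 0.10, Sprr1a 0.30, Sprr1b 0.30, Sprr2d 0.046, Sprr2f 0.67, Lce1b 0.14, Lce1d 0.15, Lce1f 0.14, Lce1i 0.54, S100a9 0.39, Casp14 0.28 and Hrnr 0.28. With array weights they were Ivl -0.0062, Sprr2g -0.16, Sprr2h -0.16, Sprr3 -0.12, Tgm1 0.35, Lce1a1 -0.13, Lce1c -0.24, Lce1h -0.13, Lce3a -0.59 and Crct1 -0.0021. Sprr2f was 0.039 after median centring and 0.0023 with an offset of 64, and Lce1h was -0.0012 with an offset of 1. Under quantile normalization Sprr2f was 0.10, Lce1f 0.051 and Lce1i 0.039. With 1 array left out, sign changes gave ranges for Crct1 of -0.10 to 0.20, Hrnr -0.28 to 0.046, Ivl -0.16 to 0.20, Lce1a1 -0.24 to 0.26, Lce1c -0.22 to 0.22, Lce1f -0.18 to 0.057, Lce1h -0.19 to 0.13, Lce1i -0.36 to 0.11 and Lce3a -0.62 to 0.44. The others were S100a8 -0.23 to 0.33, Sprr1a -0.75 to 0.073, Sprr1b -0.47 to 0.039, Sprr2f -0.36 to 0.20, Sprr2g -0.18 to 0.20, Sprr2h -0.22 to 0.14, Sprr3 -0.058 to 0.22, Tgm1 -0.40 to 0.15 and Tgm3 -0.10 to 0.27.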
